A study of Mus musculus with 12 samples.

Results

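The alignments of exactly 17 nt in the genome files of a mouse brain miRNA-Seq experiment were examined, position by position. A position is one chromosome, start, end and strand, and it was kept as a member when at least 2 reads of that length fell on it over all 12 lane files. Of 38431 positions with a 17 nt alignment, 27817 held 1 read, and the remaining 10614 were members, out of 109977 positions of every length with 2 or more reads. The members held 937006 of the 964823 reads of 17 nt (97.1%). The members were selected on alignment length and total reads, so their length and abundance are a description and were given no test.

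Small RNA came from the frontal cortex (FCx) and hippocampus (HP) of male C57BL/6J mice aged 8 weeks, with no treatment and no genetic alteration in either group. One RNA pool of 3 mice was made for each region. Each pool gave 3 libraries that differed in the 6 nt index within the 5′ adaptor, namely index 3 (UUAGGC), index 7 (CAGAUC) and index 11 (GGCUAC), and each library was sequenced in a lane of its own (individual run) and in a lane shared with the other indexes of its region (pooled run). The runs were summed, so n = 3 libraries per region, and the spread between them is technical and holds no difference between animals.

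MicroRNAs are short RNAs cut from hairpin precursors, first by Drosha in the nucleus and then by Dicer in the cytoplasm, and loaded into Argonaute proteins. The seed, bases 2 to 8 from the 5′ end, does most of the pairing with target mRNAs. A read that keeps the 5′ end and lacks bases at the 3′ end therefore still carries the seed, whereas one that starts inside the miRNA has lost part of it. The let-7 family, miR-9, miR-124 and miR-128 are abundant miRNAs of brain.

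The mature sequences below, from RefSeq (GRCm38.p6 table), belong to miRNAs named in the results. The most read members are the first 17 bases of miR-9-5p, let-7a-5p and let-7c-5p, let-7b-5p, miR-137-3p, miR-29a-3p and let-7e-5p. Others in the list were read far less at 17 nt, such as let-7g-5p with 265 reads and miR-433-3p with 409. The seed is in capitals, and the bases after position 17 are the ones that a 17 nt form lacks. The 7 let-7 miRNAs share the seed GAGGUAG, and miR-29a-3p and miR-29b-3p share AGCACCA.
let-7a-5p: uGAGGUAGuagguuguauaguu
let-7b-5p: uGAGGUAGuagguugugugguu
let-7c-5p: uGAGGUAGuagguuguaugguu
let-7e-5p: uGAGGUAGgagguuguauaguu
let-7f-5p: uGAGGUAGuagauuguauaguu
let-7g-5p: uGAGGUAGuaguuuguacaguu
let-7i-5p: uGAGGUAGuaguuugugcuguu
miR-9-5p: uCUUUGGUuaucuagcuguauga
miR-137-3p: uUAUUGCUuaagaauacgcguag
miR-29a-3p: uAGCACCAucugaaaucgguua
miR-29b-3p: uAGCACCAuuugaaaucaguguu
miR-125b-5p: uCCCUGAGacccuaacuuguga
miR-128-3p: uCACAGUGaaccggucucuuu
miR-222-3p: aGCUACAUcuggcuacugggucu
miR-433-3p: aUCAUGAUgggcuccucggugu

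A second set of members matched no mature miRNA and was grouped by likeness to its most read member. The 6 most read are printed with their NCBIM37 position and strand, as the genome reads there. Capitals mark the 7 letters TAGCATC (searched on the strand of the alignment), which 454 of the 1760 positions of this set hold (25.8%, with 51.4% of its reads), against 2.27% of the other members. The set was chosen by likeness to its leading member, so these shares are a description.
chr3:122694224-122694240 (-): tcagctcacgTAGCATC
chr13:96058266-96058282 (+): gtcaataacgTAGCATC
chr16:39397454-39397470 (-): gtagctaacaTAGCATC
chr10:62519794-62519810 (-): tcagctaacgtagcttc
chr3:51639233-51639249 (+): gcagccaacgTAGCATC
chr13:69180482-69180498 (+): tcagataacgTAGCATC

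The files held 19219683 alignments of 4 to 23 nt, between 726283 and 2240993 per FCx library and between 3667294 and 5600839 per HP library. In the deposited miRNA counts, the brain miRNAs miR-124, miR-9 and miR-128 were all detected and together took 103071 to 271724 counts per 1000000 (CPM) of all miRNA counts in the 6 libraries. The listed miRNAs of muscle (3 of 3 detected, 71 to 1079 CPM), blood (2 of 2, 21 to 143 CPM), choroid plexus (2 of 2, 2.05 to 93.3 CPM) and liver (1 of 1, 0.493 to 24 CPM) were lower, and those of oligodendrocytes (2 of 2) took 406 to 2307 CPM. Muscle miRNAs were highest in the index 7 library of both regions, and the part of such RNA in the results was not tested.

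By length, 22 nt was the most frequent class, with 83.6% of all alignments, and 17 nt came next with 5.02%. Lengths of 19 and 20 nt were almost missing, with 130 and 285 alignments. The 17 nt share was 5.01% with index 3, 5.72% with index 7 and 3.01% with index 11 in FCx, and 5.57%, 7.53% and 2.34% in HP. Index 7 was highest and index 11 lowest in both regions, and the regions overlapped.

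The mean 17 nt share was 4.58% ± 1.41 (SD, n = 3) in FCx and 5.15% ± 2.62 (SD, n = 3) in HP. This difference was smaller than the spread between libraries (exact permutation test, two-sided, p = 0.9; 3 against 3 libraries cannot go below 0.1). Leaving out FCx index 11 or HP index 7 turned its direction, to 0.22 and 0.62 percentage points higher in FCx, and with alignments of 14 to 30 nt alone as the total it was -4.3e-06 points. Within a library, the individual and pooled runs could differ by more than their Wilson intervals, although both gave the same order of indexes. For example, HP index 7 gave 7.31% (95% Wilson interval 7.28 to 7.33) in the individual and 7.93% (7.89 to 7.96) in the pooled run, and FCx index 11 gave 2.97% (2.95 to 3.00) and 3.11% (3.06 to 3.17).

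**Figure D1:**
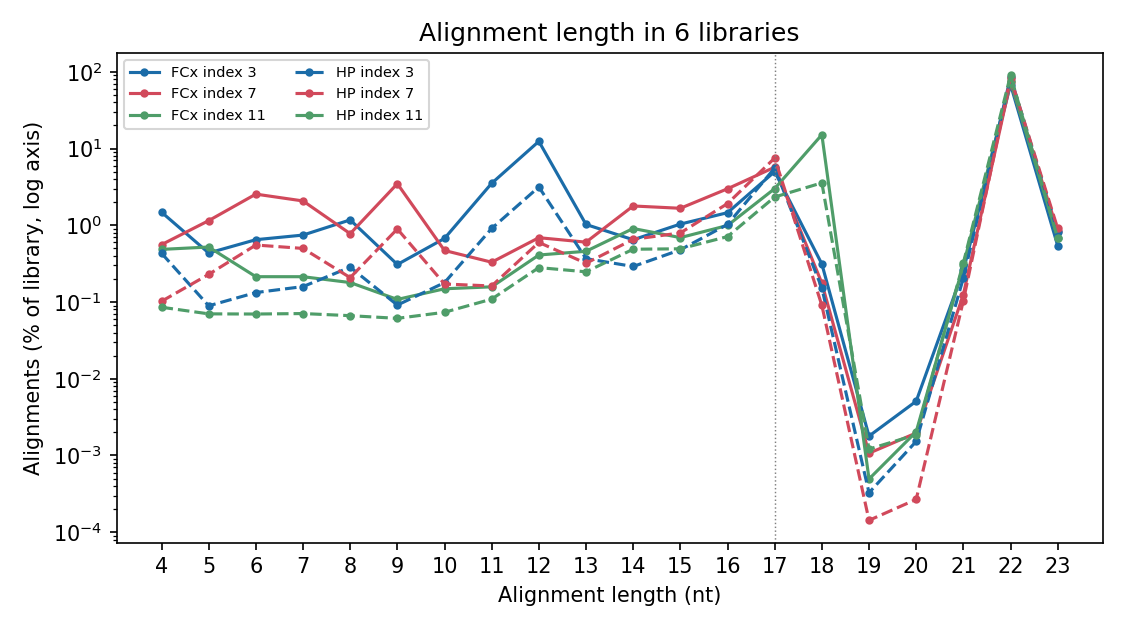
Alignments of each length (x axis, nt) as a percentage of all alignments of a library (y axis, log scale), with one line per library, solid for FCx and broken for HP, and the dotted line at 17 nt. At 17 nt the 6 libraries lie between 2.34% and 7.53%, while at 18 nt the index 11 libraries, with 15.1% and 3.57%, stand above the other 4.

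Reads were concentrated on few members. The 20 most read took 69.3% of member reads, 347 members had 100 or more and 2138 had 10 or more, whereas 4030 had exactly 2 and the median was 3. Just outside the threshold lay the 27817 positions with 1 read. Reads were found in both regions at 6108 members, in HP alone at 3687 and in FCx alone at 819, and 476 members had reads in all 6 libraries while 2753 had them in 1 library. Of the members, 7238 were seen in both runs. HP was sequenced more deeply, so these counts of positions are not comparable between regions.

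Positions are not independent, because 17 bases often occur more than once in the genome. Of the 10614 members, 4064 had another exact copy of their 17 bases, and these held 63.8% of member reads. The members were 8588 distinct sequences. The first 17 bases of miR-9-5p occurred at exactly 3 places, chr13:83878426-83878442 (+) in Mir9-2, chr3:88019535-88019551 (+), where the annotation has Gm3764, and chr7:86650165-86650181 (+) in the miRNA gene AC110909.1. These held 85388, 85183 and 84454 reads, a nearly even split.

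The first 17 bases of let-7a-5p and let-7c-5p are identical and lay at 4 places. Mirlet7c-1, Mirlet7c-2 and the miRNA gene CT009696.1 had 43051, 43138 and 43480 reads, and Mirlet7a-1 had 18850. The first 17 bases of miR-137-3p lay in Mir137 (chr3:118136819-118136835, +, 34976 reads) and at 3 places outside any miRNA gene, an intron of Arhgap6 on chromosome X (34869 reads) and unannotated sequence on chromosomes 5 (11758 reads) and 4 (11737 reads). A 17 nt read cannot be assigned to one of these copies. Copies were therefore summed for the CPM levels of miRNAs and for the comparison with longer reads that begin alike. The start classes and the tests of members by index and by region used single positions, so identical copies count there more than once.

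By annotation, 460 members lay in miRNA genes and held 54.0% of member reads. A further 7637 lay where no gene is annotated on their strand (27.6% of reads), 1946 in introns of protein-coding genes (7.53%) and 285 in their exons (0.418%). Genes outside the classes named here held 95889 reads (10.2%), and the copy of the miR-9-5p sequence in Gm3764 gave 85183 of them. The class without a gene included the first 17 bases of let-7e-5p (10519 reads) and the miR-137-3p copies on chromosomes 5 and 4. Sequence of miRNAs thus also lay outside annotated miRNA genes. Other small RNA genes contributed little, with 49 members in snoRNA genes (795 reads), 21 in snRNA genes (50 reads), 8 in rRNA genes (17 reads), 14 in mitochondrial tRNAs (127 reads) and 9 in mitochondrial rRNAs (293 reads). Y RNA genes held 3 members with 19 reads, and 7SL and 7SK genes held 0. Cytosolic tRNA genes are not in the annotation used.

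By sequence, 470 members matched a mature miRNA without mismatch and held 652668 reads (69.7%). Of these reads, 99.4% began at base 1 of the mature miRNA, 0.286% at base 2 and 0.238% at base 3. An exact match had to lie wholly within the mature sequence. Reads that start upstream of base 1 were therefore left out of these shares by the rule. Exact members covered 210 mature miRNAs. Another 1611 members differed from a mature miRNA at 1 or 2 bases (36993 reads, 3.95%), the number of mismatches that the alignment allowed. The second set, called the 6-edit set here, counted 1760 members within 6 edits (substitutions, insertions or deletions) of chr3:122694224-122694240 and held 171762 reads (18.3%). It is a loose grouping, with a median of 5 edits over 17 bases, and the 160 members within 3 edits held 37.6% of its reads. None of its members lay in a miRNA gene, and 1425 had a single exact copy in the genome.

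A small set of members ended in the 6 bases of an index. Members that ended in the tag of index 7 were 110 positions with 2331 reads, and 2321 of these reads were in libraries with index 7. For index 3 there were 68 positions with 553 reads, 536 of them in index 3 libraries. For index 11 there were 44 positions with 447 reads, all 447 in index 11 libraries. The remaining 6552 members held 7.71% of reads, among them 139 in miRNA genes (16091 reads), such as Mir383, Mir124a-1, Mir124a-3 and Mir411.

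The make-up of the members differed between libraries. Exact miRNA members took 36.9%, 61.1% and 22.6% of member reads in FCx with index 3, 7 and 11, and 73.5%, 81.5% and 59.4% in HP. The 6-edit set took 46.4%, 23.4% and 63.9% in FCx and 15.3%, 7.81% and 28.2% in HP. At every index the exact miRNA share was higher in HP and that of the 6-edit set was higher in FCx, although FCx index 7 overlapped the HP range for both. The mean exact share was 40.2% ± 19.5 (SD, n = 3) in FCx and 71.5% ± 11.2 in HP (exact permutation test, two-sided, p = 0.2).

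**Figure D2:**
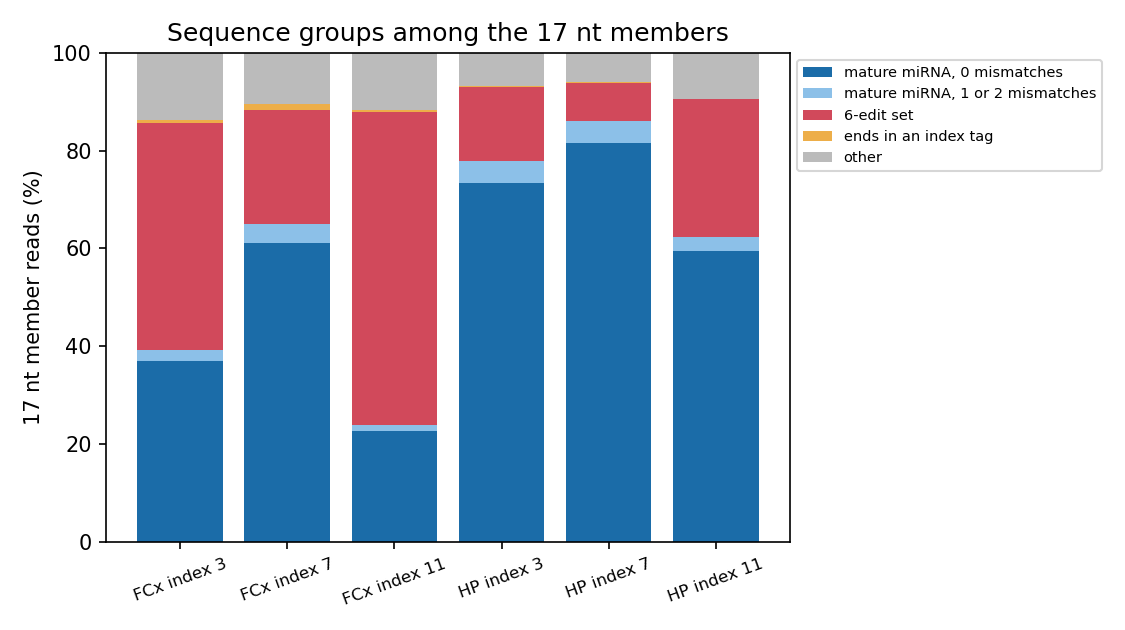
Share of 17 nt member reads (y axis, %) taken by each sequence group in the 6 libraries (x axis), as stacked bars. The 6-edit set is largest in FCx index 11 (63.9%) and smallest in HP index 7 (7.81%), and exact miRNA members run the other way, from 22.6% to 81.5%.

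To ask where 17 nt reads start, each member was compared with its anchor. This was taken from the alignments of 21 to 23 nt that shared at least 9 bases with the member on the same strand. Those alignments needed at least 10 reads in total. The anchor runs from their most read 5′ end to the most read 3′ end of the alignments with that start. At the 5′ end of their anchor started 876 members, with 660841 reads (70.5%). A further 676 members started elsewhere inside it (61016 reads, 6.51%), 525 overhung one of its ends (12663 reads, 1.35%), and 8537 had no anchor (202486 reads, 21.6%). Thus a small part of the positions, 8.25%, carried most of the reads. Of the reads at the 5′ end, 660624 ended exactly 5 bases short of the anchor, since the anchors were nearly all of 22 nt.

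Among reads with an anchor, 90.0% started at distance 0, 5.20% lay 1 base downstream, 1.72% lay 4 bases downstream and 1.24% lay 1 base upstream. Much of the 4 base class came from the copy of the miR-137 sequence on chromosome 5, with its 11758 reads. The 1 base class included the leading members of the 6-edit set, with 8134 reads at chr3:122694224-122694240 and 7264 at chr10:62519794-62519810. The most read overhanging member lay in Mir383 (3475 reads), followed among miRNA genes by the 3 loci of miR-124, with 927, 915 and 851 reads, all starting 1 base upstream of the anchor.

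The class depended on the sequence group. Exact miRNA members had 92.0% of their reads at the 5′ end of the anchor and 2.33% inside it. Classes were given per position, so identical copies of a sequence could fall in different classes. The miR-137 copy on chromosome 5 held 11758 of the 15183 exact reads inside. Its copy in Arhgap6 held 34869 of the 36170 exact reads with no anchor. The 6-edit set had 21.7% at the 5′ end, 20.5% inside and 56.8% with no anchor. Members with 1 or 2 mismatches had 30.7% at the 5′ end and 68.0% without an anchor, and those that ended in an index tag had 99.6% without one.

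The share of member reads at the 5′ end was 32.1%, 73.7% and 32.2% in FCx with index 3, 7 and 11, and 55.3%, 85.9% and 65.7% in HP. HP was higher at each of the 3 indexes, but FCx index 7 lay above 2 of the 3 HP libraries. The means of 46.02% ± 24 (SD, n = 3) and 68.98% ± 15.6 (SD, n = 3) did not differ beyond that spread (exact permutation test, two-sided, p = 0.3). Compared as same-index pairs, the difference of -23.0 percentage points gave an exact sign-flip p of 0.25, the smallest that 3 pairs allow. It was -0.74 percentage points when every position weighed the same, and -12.5 without the 6-edit set. The miR-137 copies on chromosome 5 and in Arhgap6 counted outside the 5′ end class. In HP index 3 they held 10911 and 32224 reads, beside 110057 in that class. In FCx index 3 they held 786 and 2504, beside 11155. The shares with identical copies joined were not tested.

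The neighbouring lengths behaved differently. The shares compared here are of all reads of a length, so reads with no anchor lower them. Among reads with an anchor, 76.1% of 16 nt, 90.0% of 17 nt and 99.7% of 18 nt started at distance 0. For 16 nt, 7223 positions with 254398 reads had 16.4% to 40.3% of reads at the 5′ end of the anchor, lower than 17 nt in 6 of 6 libraries, by 29.7 percentage points on average (exact sign-flip test, two-sided, p = 0.0313, the smallest that 6 libraries allow, 0.0469 adjusted over 3 lengths). For 18 nt, 1115 positions with 451245 reads had 88.1% to 97.6%, higher than 17 nt in 6 of 6 libraries, with a mean difference of -34.4 points for 17 nt minus 18 nt (exact p = 0.0313, adjusted 0.0469). Leaving out any library raised the adjusted p of both to between 0.0625 and 0.0938, since 5 libraries cannot give an exact p under 0.0625. For 19 nt there were 13 positions with 86 reads, and no difference was detectable at this depth (exact p = 0.438). The libraries share their RNA pools, so these tests speak of libraries and not of animals.

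**Figure D3:**
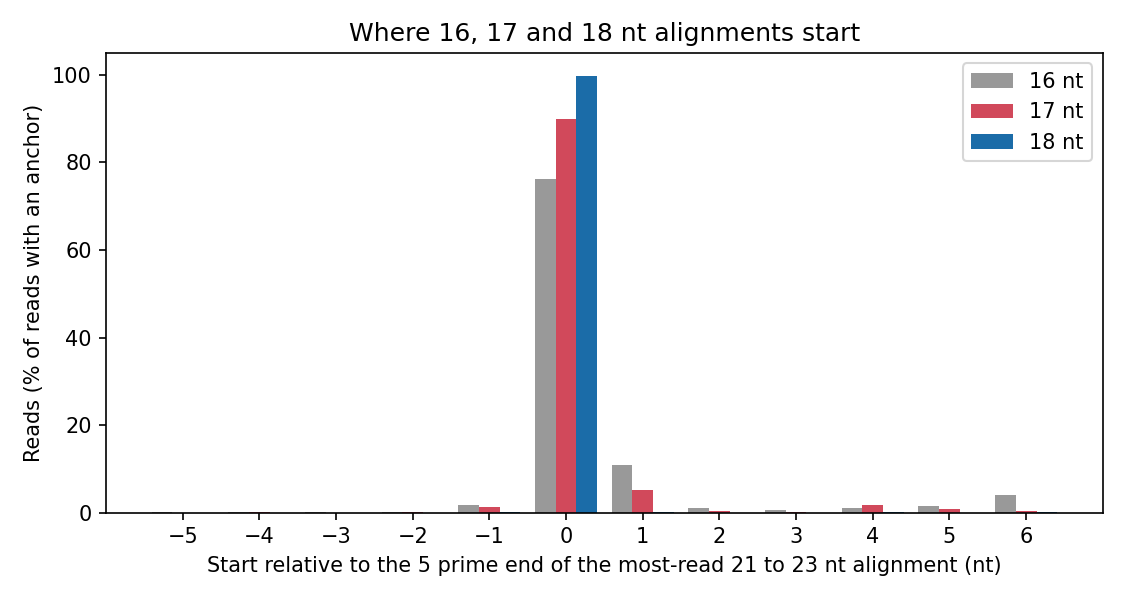
Reads of 16, 17 and 18 nt (bars) by the distance of their start from the 5′ end of the anchor (x axis, nt, negative is upstream). The y axis gives the percentage of reads with an anchor. At distance 0 stand 76.1% of 16 nt, 90.0% of 17 nt and 99.7% of 18 nt reads.

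The 18 nt alignments were in large part like the 6-edit set. Longer positions were counted by a looser rule, when their first 17 bases, or the 17 that begin at the next base, lay within 6 edits. Matches to mature miRNAs were not removed here, which gave 1765 positions at 17 nt. At 18 nt such reads were 244188 in FCx index 11 and 189905 in HP index 11, against at most 4587 in each of the other 4 libraries. Within 22 nt they took 330511 CPM of all alignments in FCx index 11 and 170714 in HP index 11, and between 26341 and 72006 in the others. At 17 nt they were more even, with 22187, 12843 and 18486 CPM in FCx at index 3, 7 and 11, and 8288, 5748 and 6404 in HP. The 17 nt reads thus did not follow index 11 as those at 18 and 22 nt did under the looser rule.

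The levels of the miRNA members are given next, as 17 nt reads per 1000000 (CPM), relative to alignments of all lengths. Reads that start at base 1 of miR-9-5p, a miRNA of neural progenitors and neurons, were 24.8, 16863 and 288 CPM in FCx with index 3, 7 and 11, and 410, 37589 and 879 in HP. The index 7 library was far above the others in both regions. Reads of miR-29a-3p, a miRNA that rises with neuronal maturation, were 2.75, 2399 and 6.79 CPM in FCx and 29.99, 3096 and 13.8 in HP, again high with index 7.

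Reads of miR-137-3p, a miRNA enriched in neurons, followed another index. They were 8991, 9.37 and 16.05 CPM in FCx and 23556, 21.1 and 48.1 in HP, so that index 3 stood above the others in both regions. Reads of let-7a-5p and let-7c-5p together were more even, at 4136, 6768 and 3150 CPM in FCx and 8864, 9832 and 7023 in HP. All 3 HP libraries were above all 3 FCx libraries for this sequence. For let-7b-5p the values of 2787, 4600 and 1877 in FCx and 4091, 4871 and 3139 in HP overlapped.

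**Figure D4:**
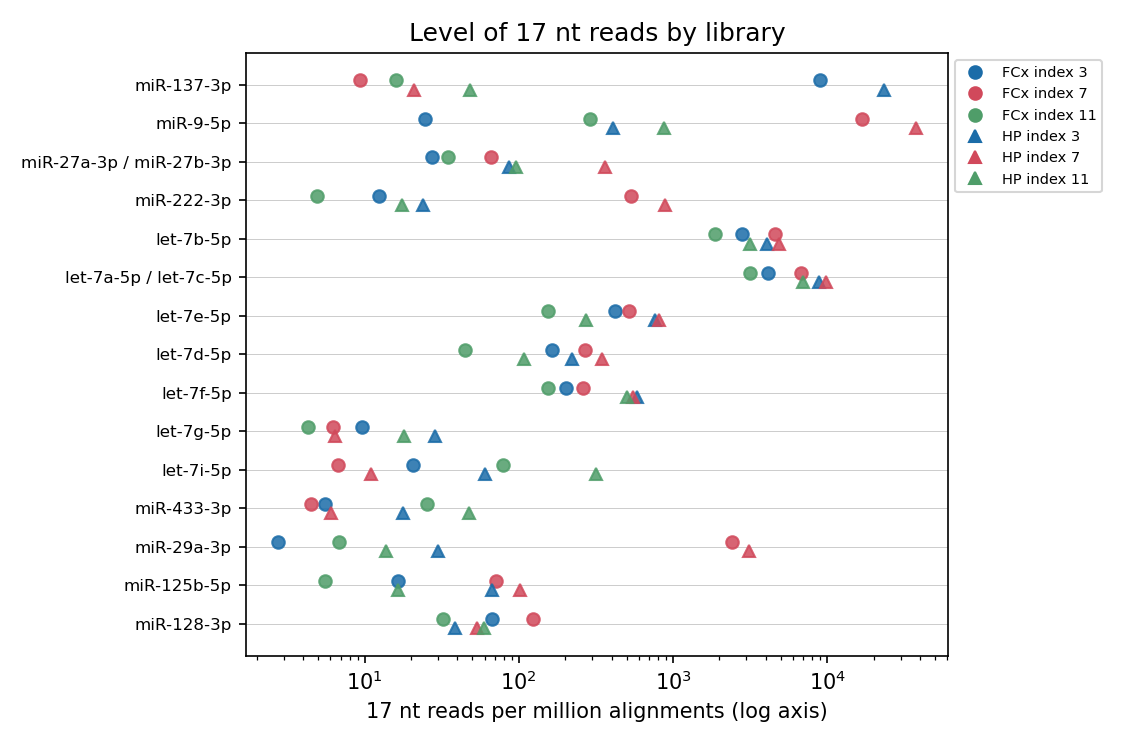
Reads of 17 nt that start at base 1 of the named miRNAs, in CPM (x axis, log scale), with circles for FCx and triangles for HP, coloured by index. The index 7 libraries stand apart for miR-9-5p (16863 and 37589) and miR-29a-3p (2399 and 3096), and the index 3 libraries for miR-137-3p (8991 and 23556). The let-7b and let-7a/c rows are narrow, while let-7d, let-7e, let-7g and let-7i are wider.

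Of the 10614 members, 2138 had the 10 reads needed to enter the edgeR quasi-likelihood fit, which was made over all 18670 positions of every length with 10 or more reads. By index, with region in the model, 48.1% of all positions tested were called at a Benjamini-Hochberg adjusted p under 0.05, and 1096 of 2138 members were (51.3%). The members were thus close to the background of all lengths. By the mean log2 level, index 3 was highest in 342 of these members, index 7 in 499 and index 11 in the others. The largest ranges between indexes, 8.28 to 10.19 on the log2 scale, were at 4 copies of the miR-137 sequence and at Mir9-2. None of the 3 copies of the let-7a/c sequence in Mirlet7c-1, Mirlet7c-2 and CT009696.1 was called (edgeR adjusted p 0.433 to 0.597).

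The lists are set beside the 48.1% of all positions called by index. Identical copies count as separate members in every list, by index and by region, so the members of a list are not independent. Of let-7 and miR-98, 12 of 30 tested members were called (40%), and of miR-124, miR-9 and miR-128, 17 of 21 (81.0%). Of miR-29, miR-26, miR-30 and miR-181, 10 of 22 were called (45.5%), and of miR-125, miR-99 and miR-100, 6 of 14 (42.9%). The 6-edit set had 284 called of 494 (57.5%), and members that ended in an index tag 53 of 56 (94.6%). DESeq2 called 231 of 2138 members by index (10.8%), beside 8.39% of all positions.

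By region, without a block, 0 of 2138 members and 0% of all positions passed in edgeR, with 53 members at an unadjusted p under 0.05 (5.67% of all positions), and DESeq2 called 2 members (1.06% of all positions). Index paired the libraries, as same-index libraries deviated together. With index as a block, 15.1% of all positions were called (6.57% higher in FCx, 8.55% higher in HP), and 217 members (10.1%), 40 higher in FCx and 177 higher in HP. The split depended on the scaling. With library totals in place of TMM factors, 169 of 218 called members were higher in FCx and 49 in HP (13.8% and 1.86% of all positions), because the median log2 difference of all positions moved from -0.20 to 0.66. Directions below are therefore given under both.

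In the blocked fit, 16 of 30 tested members of let-7 and miR-98 (53.3%) were called higher in HP, against 8.55% of all positions. None was called higher in FCx, and the median was -1.75 on the log2 scale against -0.20 over all positions tested. With library totals 9 (30%) were called higher in HP, against 1.86% of all positions, and 0 in FCx. The median was then -0.84 against 0.66. The member in Mirlet7c-1 was at -1.86 ± 0.28 (SE; edgeR adjusted p = 2.75e-09), and at -0.95 with library totals (adjusted p = 0.00852). Mirlet7b was at -1.37 ± 0.26 (adjusted p = 9.62e-06), and was not called with library totals (-0.46, adjusted p = 0.217).

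For miR-124, miR-9 and miR-128, 6 of 21 (28.6%) were called higher in HP, against 8.55% of all positions, and 0 in FCx. With library totals 3 (14.3%) were called higher in HP, against 1.86% of all positions, and 0 in FCx. The list's median then turned from -0.73 to 0.17. Mir9-2 was at -3.00 ± 0.30 (edgeR adjusted p = 4.33e-20) and -2.10 with library totals. Its reads were 2, 12603 and 152 in FCx and 484, 70620 and 1527 in HP at index 3, 7 and 11. Of the list with miR-29, miR-26, miR-30 and miR-181, 4 of 22 (18.2%) were called higher in HP. Of that with miR-125, miR-99 and miR-100, 3 of 14 (21.4%) were, with 0 higher in FCx in either. With library totals 1 of each was called (4.55% and 7.14%), again higher in HP. Of the 6-edit set, 25 of 494 (5.06%) were called higher in FCx, a share below the 6.57% of all positions, and 1 was called higher in HP. With library totals 120 (24.3%) were called higher in FCx, against 13.8% of all positions, and 0 in HP.

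The members with the largest blocked differences were thinly read. All 5 on the HP side had 0 reads in FCx, and the 5 on the FCx side had 0 reads in HP, so they passed the filter through the region where they were high. They were picked for that difference, and their reads are a description. On the FCx side, the first 17 bases of miR-200a-3p in Mir200a (chr4:155429025-155429041, -) had 18 reads, all in FCx index 7. The other 4, on chromosomes 11, 13, 14 and X, had 12 to 15 reads, and 2 of them lay in the introns of Wwc1 and Slc35f4.

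On the HP side, the position at chr8:86377633-86377649 (+) had 51, 1 and 9 reads at index 3, 7 and 11. Those at chr9:21142085-21142101 (+) and chrX:106552806-106552822 (+) had 57 and 45 reads, all in HP index 3, and the latter is 1 mismatch from miR-137-3p. The position on chromosome 1 had 29 reads, all in HP index 7, and is 2 mismatches from miR-9-5p. The position on chromosome 12, 2 mismatches from let-7a-5p, had 12, 14 and 6 reads. Except for the first and the last of these, the HP reads came from 1 library.

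A level can be high because the miRNA is abundant in that library or because more of its reads are short. To separate these, 17 nt reads were compared with 22 nt reads whose first 17 bases, as the genome reads, are the same. There were 477 such sequences with at least 10 reads of each length, of which 123 were the first 17 bases of a mature miRNA. The 17 nt share of the sum of both lengths had a median of 2.92% over the 123 miRNAs. It was under 1% in 28, over 10% in 30 and over 50% in 3.

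Index was tested in edgeR as an interaction with length, with each library as a block. Of the 477 sequences 31.4% were called, and of the 123 miRNA starts 51 (41.5%), with index 7 highest in 31, index 11 in 16 and index 3 in 4. Leaving out FCx index 7 or HP index 7 lowered the calls over all sequences from 150 to 36 and 29, and without HP index 11 there were 86. This test was chosen after the data had been seen.

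For miR-9-5p the 17 nt share was 0.327% (95% Wilson interval 0.207 to 0.517), 76.2% (75.8 to 76.6) and 2.67% (2.44 to 2.92) in FCx with index 3, 7 and 11, and 2.45%, 79.2% and 3.56% in HP (edgeR adjusted p = 1.77e-109). Of the reads of these 2 lengths, most were thus of 17 nt in the index 7 libraries and most were of 22 nt in the other 4. The mature miR-9-5p in RefSeq has 23 nt, and reads of other lengths were not counted here. Its 22 nt reads were 11806 in FCx index 7 and 55456 in HP index 7, beside 37789 and 210531 of 17 nt.

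For miR-29a-3p the values were 0.0158%, 6.00% and 0.0119% in FCx and 0.135%, 4.72% and 0.0145% in HP (edgeR adjusted p = 4.76e-138). The sequence common to miR-29b-3p and miR-29c-3p, which have the same seed, gave 0.0567%, 0.971% and 0.0685% in FCx and 0.191%, 1.03% and 0.0805% in HP (adjusted p = 1.09e-10). Both were highest with index 7, at different heights.

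Further miRNAs that were highest with index 7 were miR-222-3p, miR-125b-5p and miR-27. With index 7, miR-222-3p gave 12.2% in FCx and 11.4% in HP, and 1.19% to 4.73% elsewhere (edgeR adjusted p = 2.82e-10). That of miR-125b-5p, a homologue of the first known miRNA, lin-4, was 3.66% and 3.82% with index 7 and 0.136% to 0.425% elsewhere (adjusted p = 5.07e-26). The sequence common to miR-27a-3p and miR-27b-3p reached 24.2% in FCx and 47.3% in HP with index 7, against 3.94% to 9.98% elsewhere (adjusted p = 2.20e-09).

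Index 11 was highest for let-7i-5p, with 3.76% in FCx and 4.30% in HP against 0.435% to 0.789% in the other libraries (edgeR adjusted p = 3.88e-13). It was also highest for miR-433-3p, a miRNA of the imprinted cluster on chromosome 12, with 3.82% and 6.45% against 0.162% to 1.29% (adjusted p = 2.85e-19).

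For 6 further let-7 sequences no difference between indexes was called, and each had its own height. For let-7b-5p, FCx gave 6.43%, 7.29% and 5.77%, and HP 5.82%, 6.53% and 4.81% (edgeR adjusted p = 0.402). That of let-7a-5p and let-7c-5p lay between 2.73% and 3.60% (adjusted p = 0.423), that of let-7e-5p between 2.55% and 2.81% (0.974), that of let-7f-5p between 0.859% and 1.17% (0.685), that of let-7d-5p between 0.783% and 1.502% (0.241), and that of let-7g-5p between 0.0753% and 0.162% (0.365). The exception beside let-7i-5p was the first 17 bases of let-7k, with a lower share at index 11. That share was 7.01% in FCx and 10.2% in HP, on 11 and 107 reads of 17 nt. In the other libraries it was 25.6% to 29.2% (edgeR adjusted p = 0.00266). These 17 bases lay at 4 member positions. At the position with the most 22 nt reads the genome continues with GTGTTG, whereas let-7k continues with UG. The reads therefore cannot be assigned to let-7k. The order let-7b, then let-7a/c, then let-7f, then let-7g held in every library, and let-7e lay below let-7a/c in 5 of 6. A p above the threshold does not show that the shares are equal.

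Among these, let-7a, b, c, e and f have U at position 18, and let-7g and let-7i have C. The adaptor joined to the 3′ end of the RNA begins with U as well. Over the 123 miRNAs the median share was 2.82% where base 18 in the genome is T, 3.35% for G, 3.07% for A and 2.28% for C. Counting matches between the 6 bases after position 17 and the first 6 bases of that adaptor, the medians were 1.71% (0 matches, 13 miRNAs), 2.29% (1, 31), 3.87% (2, 43), 2.73% (3, 25) and 3.63% (4, 10), and the 1 miRNA with 5 matches had 27.7%. Ranges within the classes were wide, for example 0.0432% to 54.6% with 1 match. These medians weigh each miRNA alike. By reads, the 10 miRNAs with 4 matches held the most of 17 nt, 330493 beside 7150756 of 22 nt. Of the 17 nt reads with 4 matches, let-7a/c gave 148519, miR-137-3p 93340 and let-7b-5p 74497. Those with 1 match held 260482 and 855942, of which miR-9-5p gave 255025 and 277395. Those with 2 matches held 14171 and 2001069, and those with 3 matches 42327 and 2055202. With 0 matches there were 1122 and 193700, and with 5 matches 95 and 248. A few miRNAs thus made up much of these totals. A relation between the adaptor and the 17 nt share was not tested.

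miR-137-3p had a high share in all libraries, 64.4%, 61.8% and 78.8% in FCx and 64.02%, 71.1% and 56.5% in HP (edgeR adjusted p = 0.867). Its 22 nt reads were 3615, 13 and 7 in FCx and 48541, 48 and 199 in HP. Both lengths were thus high with index 3, and the shares with index 7 and 11 in FCx rest on 34 and 33 reads, with Wilson intervals of 45.0 to 76.1% and 62.2 to 89.3%. At the other end, miR-128-3p, among the most read miRNAs at 22 nt, had 17 nt shares of 0.0392% to 0.111%, and miR-26a-5p, of 0.0241% to 0.121%.

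By region, 6 of the 477 sequences were called in the same fit (1.26%), and 33 had an unadjusted p under 0.05. One of the 6 was the start of a mature miRNA, miR-9-5p, at -1.08 on the log2 scale, lower in FCx (edgeR adjusted p = 0.00214). Its share was lower in FCx than in HP at each of the 3 indexes. In proportion the gap was widest with index 3, at 0.327% against 2.45%, where FCx had 18 reads of 17 nt. With index 7 it was 76.2% against 79.2%, and with index 11 2.67% against 3.56%.

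**Figure D5:**
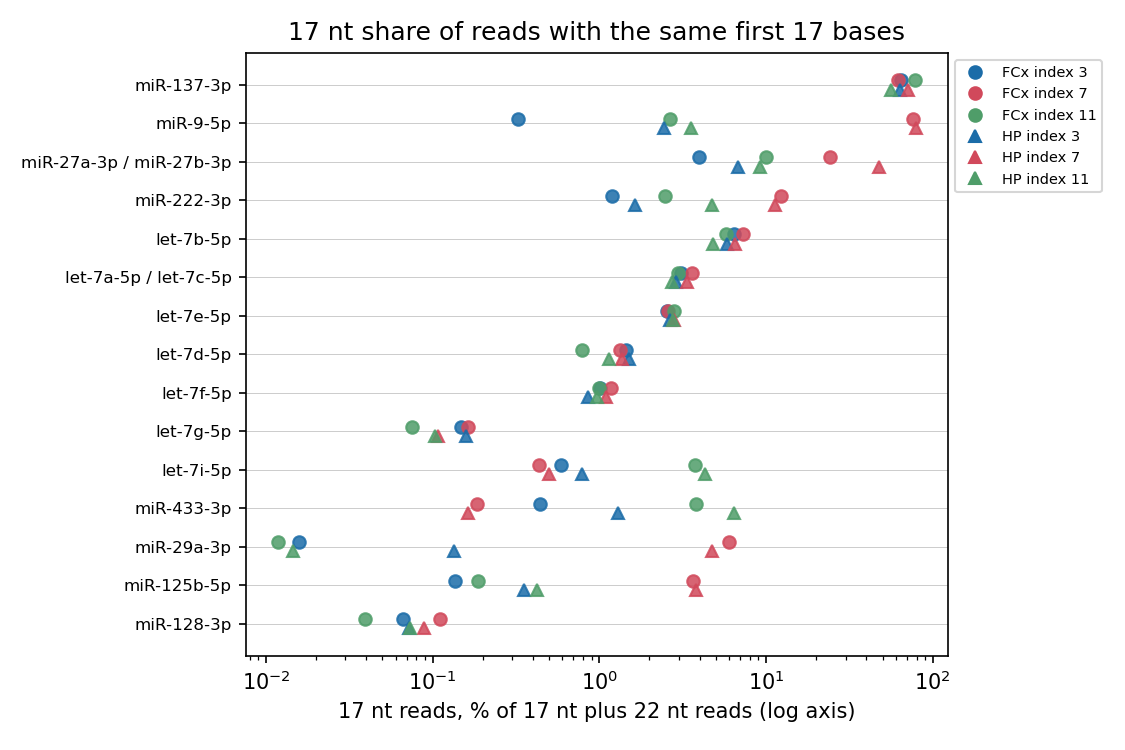
Reads of 17 nt as a percentage of 17 nt plus 22 nt reads with the same first 17 bases (x axis, log scale) for the named miRNAs, with circles for FCx and triangles for HP, coloured by index. miR-9-5p, miR-29a-3p and miR-125b-5p have their index 7 points far to the right, let-7i-5p and miR-433-3p their index 11 points, and miR-137-3p and the let-7b, let-7a/c, let-7e and let-7f rows have all 6 points close together.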

How the data were processed

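Genome alignments of 12 lanes and miRNA counts were used. Per the study's methods the authors removed the index and 3′ adaptor, discarded reads under 14 nt, adaptor dimers and mitochondrial and ribosomal reads, and aligned the rest to NCBIM37 with Bowtie (version not given in the sources used here), allowing 2 mismatches. The deposited miRNA files hold raw counts per miRBase 11 miRNA and were used for the tissue check. The alignment files give coordinates without read letters, so every sequence is that of the genome (NCBIM37, with GENCODE M1 genes), and both exact and mismatched reads take its letters. The score column is constant and was not used.

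Alignments were counted per position, runs summed per library, and shares compared by exact permutation or sign-flip tests. Counts were fitted in edgeR 4.0.16 (quasi-likelihood, TMM, all 18670 positions with 10 or more reads, Benjamini-Hochberg, threshold 0.05), with DESeq2 1.42.0 as an alternative. A prior of 2 reads was used for the log2 ranges. Wilson intervals (95%) cover counting error only, and PCR reads are not independent molecules. Same-index libraries correlated at 0.752 to 0.827 in their deviations from the region means, so index was taken to pair them. Different indexes gave -0.458 to -0.321. Deviations from a region mean cancel out within the region, so these negative values are no separate support. The code was tested on simulated data. The members and lists were chosen with earlier results of these data known, and the miRNA, 6-edit and index-tag groups, the test of 17 against 22 nt reads and the alternatives of the blocked fit were added after the data were seen. Genes were named by rule, as the 20 most read members, the 5 most read per start class, the 5 with the largest index range and the 5 with the largest region difference in each direction. The miRNAs set beside the 22 nt reads were chosen after their values were seen. The alternatives tried were leaving out a library, each run alone, and other anchors, filters and scalings.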

Additional observations from a re-analysis of the deposited data

Results flagged for a closer look

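The 17 nt to 22 nt ratio of miR-9-5p differed between the regions, by -1.08 on the log2 scale (FCx over HP, edgeR adjusted p = 0.00214). It was 1 of 6 sequences with such a difference among 477, and the other 5 included 2 of the 6-edit set. For miR-9-5p the gap was widest in proportion with index 3, where FCx had 18 reads of 17 nt. A signal also appeared at lengths outside the main measurement. The files held 977461 alignments under 14 nt, 5.09% of all, although reads of these lengths were to be removed according to the methods. They were most frequent at 12 nt, with 12.4% of alignments in FCx index 3 and 3.16% in HP index 3 against 0.281% to 0.689% in the other libraries. Groups of 3 libraries were not tested for outliers.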

How the results depend on the processing

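The difference of -0.57 percentage points in the 17 nt share vanished when only alignments of 14 to 30 nt made up the total (-4.3e-06, exact p = 1), and was -1.67 without the 6-edit set. Leaving out one library gave -1.97 to 0.62 percentage points (FCx minus HP), with 0.22 without FCx replicate 3 (index 11) and 0.62 without HP replicate 2 (index 7). The replicate block left the differences at -0.57 (17 nt share) and -23.0 percentage points (5′ end share). The share at the 5′ end kept its sign, with -36.8 to -14.5 when a library was left out. Against 16 nt it was 25.1 to 33.2 points and against 18 nt -40.3 to -28.4 without one library, each no longer past the threshold, and against 19 nt -27.7 to -6.80, with -37.2 and past it in the individual runs alone. By region, without the block, DESeq2 called 2 members against 0, the replicate block 217, and the block with library totals 218. The blocked count was 62 with DESeq2, 109 in individual lanes, 85 in pooled lanes, 30 with no filter beyond 2 reads, and 46 to 191 without one library, lowest without index 11 of either region. By index the count was 231 with DESeq2, 418 with at least 50 reads (where 571 members were tested), 679 in individual lanes, 488 in pooled lanes, 620 with no filter, and 434 to 978 without one library. The ratio of 17 to 22 nt gave 29 to 136 calls without one library. The cause of these changes was not tested. The 10 members with the largest region differences lost their call in 56 of the alternative fits that gave them an adjusted p and kept it in 60. Depth limited the FCx index 3 library most, with 726283 alignments.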
